A study of Mus musculus with 6 samples.

Results

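The genes described here encode collagen chains, taken as every entry of the count table whose symbol is Col, a type number, the letter a and a chain number. The rule found 44 chains among 24062 gene symbols. By the structure of their proteins, 11 are fibrillar, 9 build networks, 9 are FACITs (fibril-associated collagens with interrupted triple helices) and 15 are of other kinds. At least 10 counts in at least 3 libraries were found for 36 chains, called expressed here. The remaining 8 were below that and are called silent. All the expressed chains except Col2a1, 35 in number, also passed the filter of the statistical test.

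Each collagen molecule is a trimer of chains wound into a triple helix, made in the endoplasmic reticulum, hydroxylated on proline and lysine, secreted, trimmed and crosslinked. Fibrillar collagens carry tension in the heart wall, where types I and III make up most of the interstitial matrix and type V sits in the core of the fibrils. Type IV forms the sheet of basement membranes around myocytes and vessels, and type VI forms beaded filaments next to cells. Cardiac fibroblasts are the main makers of fibrillar collagen in the adult heart.

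Both groups came from Tw2-CreERT2;R26-tdTO mice, in which tamoxifen activates a Cre enzyme expressed under Twist2 control and thereby turns on the red protein tdTomato for good. All mice received tamoxifen at 8 weeks, and cells were prepared 10 days after the first dose, at a recorded age of 9 weeks. The Tw2+ group holds 3 libraries of tdTomato-positive non-cardiomyocytes, and the Tw2- group holds 3 libraries of tdTomato-negative ones. A Tw2+ cell is thus one that had the driver active when tamoxifen was given, or its descendant, while Tw2- cells are every other sorted non-cardiomyocyte, including any in which the recombination failed. The labels speak of pooled cardiac cells, and the sources used here do not give the number of hearts behind a library. Since the deposited columns give only numbers 2 and 3 in each group, the remaining library is called unnumbered.

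Total counts were 11746696 to 13280522 in Tw2+ and 11767130 to 16447098 in Tw2- libraries. Levels are CPM, each library's counts relative to its TMM-scaled total. The 10 fibroblast markers other than collagens, such as Pdgfra and Dcn, summed to 55403 to 67443 CPM in Tw2+ cells and 32275 to 49362 CPM in Tw2-. These sums did not overlap between the groups. In the edgeR test below, 2 of the 10 were called higher in Tw2+ and 0 lower, where 7.41% and 10.8% of all genes were. Fibroblast transcripts were thus also plentiful in Tw2-. The 6 macrophage markers summed to 78.1 to 188 CPM in Tw2+ cells and 1517 to 3667 CPM in Tw2-. The 10 markers of vascular endothelium summed to 243 to 753 CPM in Tw2+ cells and 638 to 2004 CPM in Tw2-, of which Tw2+ 3 was the highest in its group and the library lacking a number the lowest in Tw2-. Of all listed markers of these 3 cell types none was at 0 in a whole group. In bulk libraries, fewer cells of a type and less RNA per cell cannot be told apart.

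Together the chains took 2.38%, 2.53% and 2.06% of all counts in libraries 2, 3 and unnumbered of Tw2+. In libraries 2, 3 and unnumbered of Tw2- they took 1.78%, 2.26% and 2.52%. The groups overlapped, with a mean of 2.32 ± 0.239% in Tw2+ and 2.18 ± 0.376% in Tw2- (SD, n = 3 each). Network collagens held 0.583% to 0.648% of all counts in Tw2+ and 0.406% to 0.561% in Tw2-, and FACITs 0.0525% to 0.0584% in Tw2+ and 0.0438% to 0.0515% in Tw2-. These were the classes whose shares did not overlap between the groups. Fibrillar chains held 43.6 ± 2.23% of the collagen counts in Tw2+ and 46.9 ± 2.65% in Tw2- (SD, n = 3 each). The 8 chains with the most counts held 78.0% of the collagen counts in Tw2+ and 78.3% in Tw2-.

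**Figure D1:**
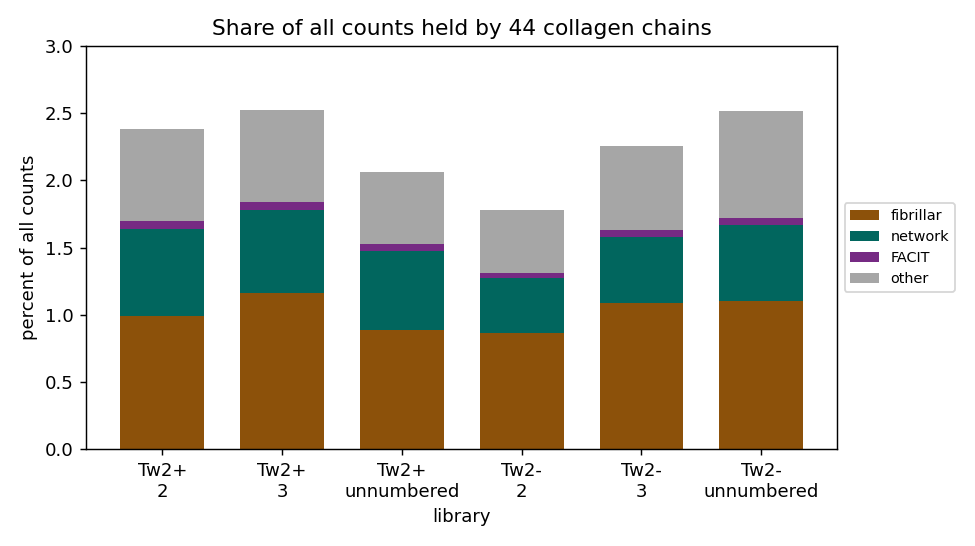
Percent of all counts held by the 44 collagen chains in each library, stacked by class, with Tw2+ libraries on the left. The stacks reach 2.06% to 2.53% in Tw2+ and 1.78% to 2.52% in Tw2-.

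Measured per kilobase of the longest annotated transcript, Col4a1 was the most abundant chain in Tw2+ at 651 ± 77.9 CPM per kb, against 413 ± 71.8 CPM per kb in Tw2- (SD, n = 3 each). Col6a1 followed in Tw2+ at 541 ± 52.2 CPM per kb, with 407 ± 127 CPM per kb in Tw2-. The fibrillar chains Col1a2, Col3a1 and Col1a1 lay close together in Tw2+, at 499 ± 22.4, 485 ± 97.7 and 455 ± 15.1 CPM per kb. In Tw2- Col3a1 was the highest chain at 550 ± 71.1 CPM per kb, ahead of Col4a1 and Col6a1, with Col1a2 at 394 ± 52.9 and Col1a1 at 321 ± 27.8. Neighbours in either order differed by less than their spread in many cases, as for Col1a2 and Col3a1 in Tw2+. The order depended on the length used. Per kb of all exons together, Col4a1 was again first in Tw2+ (577 ± 69.0 CPM per kb), but Col6a1 (381 ± 119) and Col4a1 (366 ± 63.6) stood above Col3a1 (312 ± 40.3) in Tw2-.

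**Figure D2:**
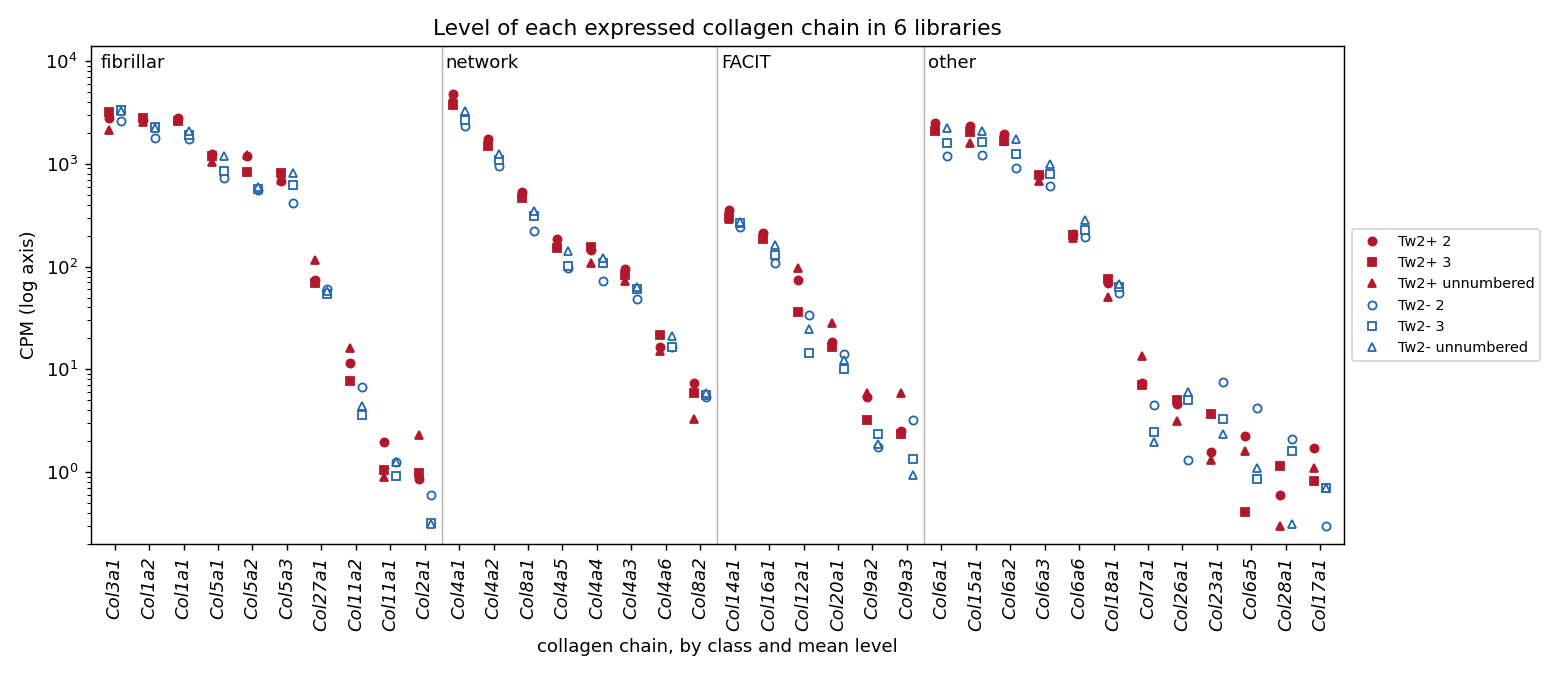
CPM of the 36 expressed chains in each library on a log axis, grouped by class and ordered by mean level, with filled symbols for Tw2+ and open symbols for Tw2-. Levels span from Col4a1, at 3731 to 4723 CPM in Tw2+, down to chains near 1 CPM.

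Tested over all genes, 6 of 35 chains were higher in Tw2+ at an adjusted p under 0.05 and 0 were lower in edgeR's quasi-likelihood test. In that test 7.41% of 13180 genes were called higher and 10.8% lower (18.2% in either direction), so the chains' 17.1% called higher stood above the share for all genes. DESeq2 called 11 chains higher and 0 lower, where it called 10.2% of all genes higher and 12.8% lower. An unadjusted p under 0.05 was reached by 13 of the 35 chains, all with positive log2 fold changes. That share is near the 36.7% of all genes that reached it in either direction. The median log2 fold change (Tw2+ over Tw2-) was 0.43 over the tested chains and 0.00 over all tested genes, and 27 chains lay above 0, against 8 relative to the fibroblast markers. All Tw2+ values lay above all Tw2- values for 17 of the 35 chains and below them for 0, against 18.2% and 19.2% of all tested genes.

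The direction depended on the scale. With libraries scaled to the 10 fibroblast markers, 0 chains were higher and 4 were lower, namely Col3a1, Col6a3, Col6a6 and Col23a1, and the median of the chains was -0.28. On that scale 0.683% of all genes were called higher and 34.9% lower, and the median of all genes was -0.76. By library size alone 0 chains were called in either direction by edgeR, with 3.07% of all genes higher and 13.0% lower, and the medians were 0.16 for the chains and -0.28 for all genes. Rises below are on the TMM scale, so they are relative to the bulk of the tested genes. They are not relative to the library total or to other fibroblast transcripts. The TMM factors of libraries 2, 3 and unnumbered were 0.872, 1.01 and 0.846 in Tw2+ and 1.09, 1.13 and 1.08 in Tw2-.

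**Figure D3:**
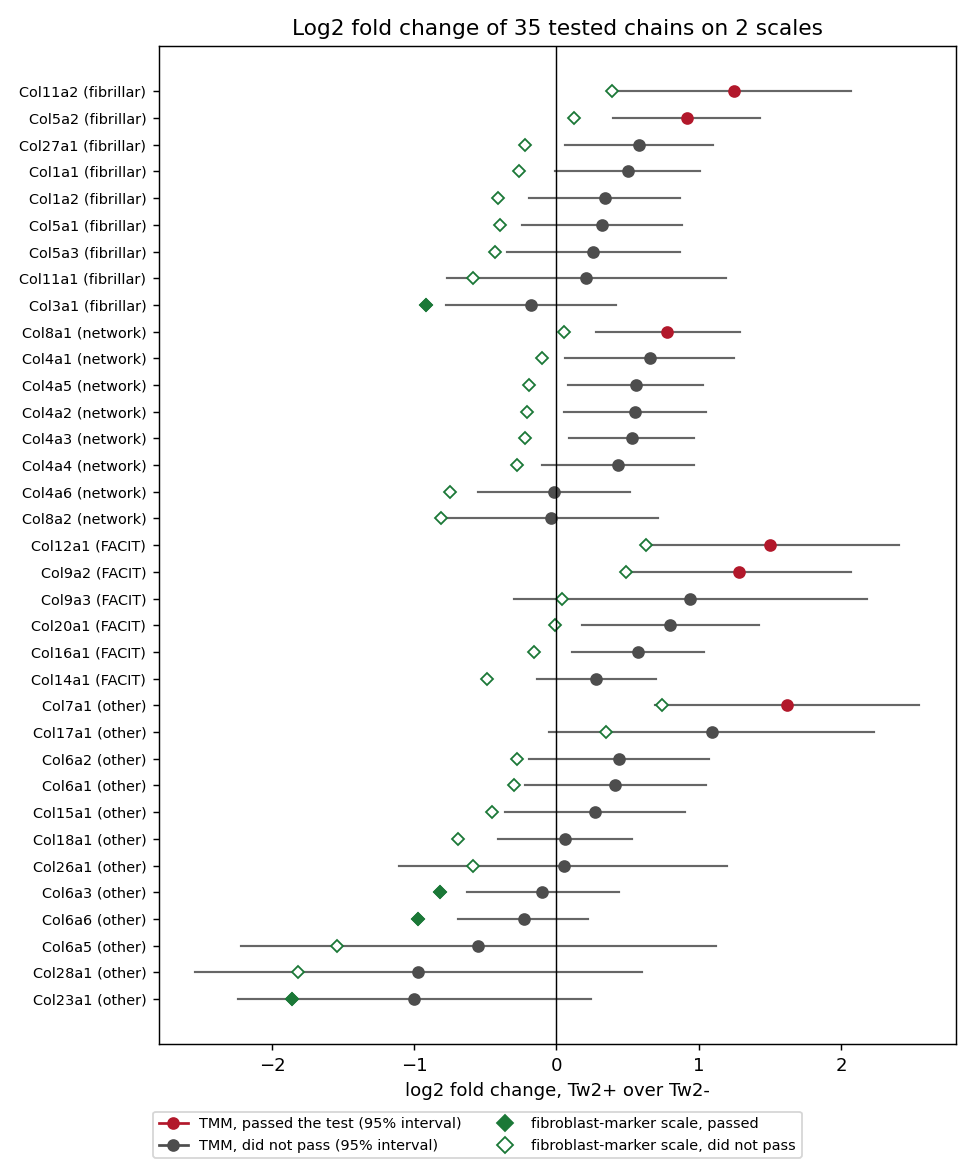
Log2 fold change, Tw2+ over Tw2-, of the 35 tested chains. Circles with 95% intervals are on the TMM scale (red where the test was passed) and diamonds on the scale of the 10 fibroblast markers (filled where passed). The 6 red circles lie between 0.78 and 1.62, and the 4 filled diamonds between -1.86 and -0.82.

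Among the fibrillar chains, Col5a2 and Col11a2 rose in Tw2+, 2 of 9 tested. Col5a2, the α2 chain of type V collagen, which limits fibril diameter, had 1199, 837 and 1224 CPM in libraries 2, 3 and unnumbered of Tw2+. It had 559, 572 and 597 CPM in libraries 2, 3 and unnumbered of Tw2-. Every Tw2+ library was above the narrow Tw2- range, with Tw2+ 3 the lowest of its group. The log2 fold change was 0.92 (SE 0.23, 1.89-fold, adjusted p = 0.0277). Col5a2 lies on the - strand of chromosome 1 at 45374321 to 45503282 of GRCm38, and Col3a1 lies 24614 bp away on the + strand, so that the genes end towards each other.

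The neighbour Col3a1, which encodes type III collagen of distensible tissues, was not called on the TMM scale. It had 2770, 3205 and 2124 CPM in Tw2+ cells and 2603, 3322 and 3251 CPM in Tw2-, in the library order used above. The groups overlapped and the log2 fold change was -0.18 (SE 0.26, 95% interval -0.78 to 0.42, adjusted p = 0.648). Relative to the fibroblast markers Col3a1 was lower in Tw2+ (log2 fold change -0.92, adjusted p = 0.0347).

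The chains of type I collagen, the main fibril former, were close to each other in level. Col1a1 had 2764, 2594 and 2730 CPM in Tw2+ cells and 1737, 1902 and 2066 CPM in Tw2-. Col1a2 had 2636, 2801 and 2568 CPM in Tw2+ cells and 1781, 2296 and 2242 CPM in Tw2-. For both genes the 3 Tw2+ values lay above the 3 Tw2- values, yet neither passed in edgeR, at log2 fold changes of 0.50 (SE 0.23, adjusted p = 0.141) and 0.34 (SE 0.23, adjusted p = 0.318). DESeq2 called Col1a1 higher (adjusted p = 0.0211) but not Col1a2 (adjusted p = 0.180).

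The other type V chains overlapped between the groups. Col5a1, the α1 chain needed to start fibrils, averaged 1149 ± 107 CPM in Tw2+ cells and 920 ± 232 CPM in Tw2- cells (log2 fold change 0.32, SE 0.25, adjusted p = 0.371). Col5a3, the remaining type V chain, averaged 733 ± 76.2 CPM in Tw2+ cells and 613 ± 196 CPM in Tw2- cells (0.26, SE 0.27, adjusted p = 0.513). In Tw2- both were lowest in library 2 and highest in the unnumbered one, which is also the order of the summed fibroblast markers there, at 32275, 42538 and 49362 CPM. The part of that marker level in these values was not tested.

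Col11a2, an α chain of the cartilage fibril collagen XI, was a low-level chain that rose. It had 11.7, 7.64 and 16.0 CPM in Tw2+ cells and 6.81, 3.60 and 4.39 CPM in Tw2-, and the lowest Tw2+ value, in library 3, was just above the highest Tw2- value, in library 2. The log2 fold change was 1.25 (SE 0.36, adjusted p = 0.0452), on chromosome 17 at 34039437 to 34066685. Col2a1, the main collagen of cartilage, was at the edge of detection with 10, 12 and 23 counts in Tw2+ and 10, 6 and 4 counts in Tw2-. It counted as expressed through its Tw2+ libraries, since 1 Tw2- library reached 10 counts, and the filter of the test left it out. Col11a1 averaged 1.32 CPM in Tw2+ cells and 1.14 CPM in Tw2- cells (log2 fold change 0.21, adjusted p = 0.749). Col27a1 was above in every Tw2+ library, at 73.3, 69.1 and 116 CPM against 60.8, 53.8 and 58.2 CPM in Tw2-, without passing (0.58, SE 0.23, adjusted p = 0.105).

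**Figure D4:**
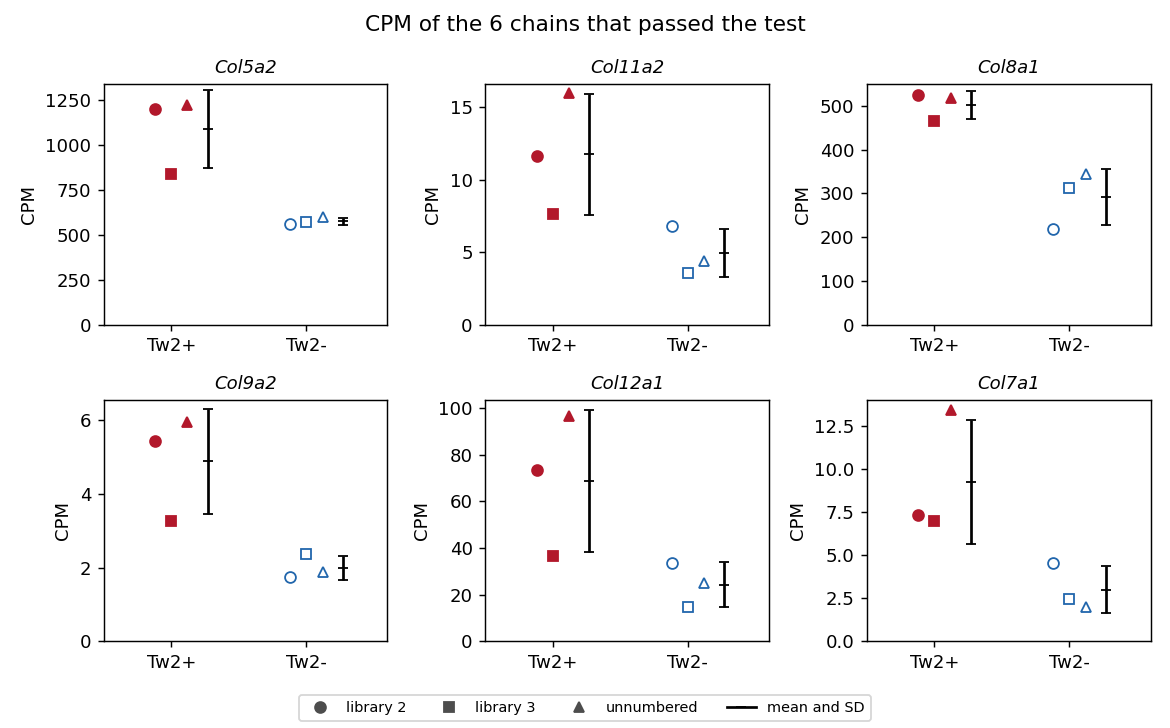
CPM in each library of the 6 chains that passed the test, Tw2+ left and Tw2- right, on linear axes from 0, with mean and SD. In each panel the 3 Tw2+ values lie above the 3 Tw2- values, and Tw2+ 3 is the lowest Tw2+ library.

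Of 8 tested network chains 1 rose. This was Col8a1, a short-chain collagen of vessel walls and of the cornea, which had 525, 465 and 517 CPM in Tw2+ cells and 220, 312 and 344 CPM in Tw2-. The Tw2+ libraries were tightly grouped and all above the Tw2- ones, and the log2 fold change was 0.78 (SE 0.22, 1.72-fold, adjusted p = 0.0427). Its partner Col8a2 was lower by far, with 7.34, 5.85 and 3.32 CPM in Tw2+ cells and 5.42, 5.69 and 5.89 CPM in Tw2- cells (log2 fold change -0.04, SE 0.33, adjusted p = 0.946). Col8a1 lies on chromosome 16 at 57624258 to 57754737 on the - strand, and Col8a2 on chromosome 4.

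The type IV chains, the sheet formers of basement membranes, lie in head-to-head gene pairs, and 5 of the 6 had positive log2 fold changes on the TMM scale and 0 relative to the fibroblast markers. Col4a1 had 4723, 3731 and 4468 CPM in Tw2+ cells and 2307, 2651 and 3246 CPM in Tw2-. Col4a2 had 1734, 1503 and 1548 CPM in Tw2+ cells and 945, 1091 and 1237 CPM in Tw2-. Neither overlapped between the groups and neither passed in edgeR, at log2 fold changes of 0.66 (SE 0.26, adjusted p = 0.106) and 0.55 (SE 0.22, adjusted p = 0.111), while DESeq2 called both higher (adjusted p = 0.0172 and 0.0265). An alternative added after the data were seen left out Tw2+ 3 and the Tw2- library lacking a number. Col4a1 then passed in edgeR (log2 fold change 0.87, adjusted p = 0.0434), where 19.0% of all genes were called higher. The libraries left out held its lowest Tw2+ and its highest Tw2- value, so the gap had to widen. This pass therefore adds no support to the DESeq2 call.

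Col4a3 and Col4a4, chains of the specialised basement membranes of kidney and inner ear, start 71 bp apart on chromosome 1 and run in opposite directions. Col4a3 averaged 83.2 ± 11.7 CPM in Tw2+ cells and 57.6 ± 8.05 CPM in Tw2- cells (log2 fold change 0.53, SE 0.19, adjusted p = 0.0860). Col4a4 averaged 136 ± 23.6 CPM in Tw2+ cells and 100 ± 24.5 CPM in Tw2- cells (0.43, SE 0.24, adjusted p = 0.214). The X-linked pair Col4a5 and Col4a6, 1308 bp apart, was uneven in level. Col4a5 averaged 167 ± 16.6 CPM in Tw2+ cells and 114 ± 25.7 CPM in Tw2- cells (0.56, SE 0.21, adjusted p = 0.0923). Col4a6 was at 17.8 ± 3.42 CPM in Tw2+ cells and 18.0 ± 2.86 CPM in Tw2- cells (-0.02, SE 0.23, adjusted p = 0.969). No type IV chain passed in edgeR on all 6 libraries, although 4 of the 6 had 95% intervals above 0 before adjustment. With libraries paired by replicate number and the unnumbered ones as a pair, an alternative added after the data were seen, Col4a5 passed (log2 fold change 0.57, adjusted p = 0.0455), where 14.8% of all genes were called higher. On the 4 numbered libraries alone, Col4a3, Col4a4 and Col4a5 passed with the number as a block (adjusted p = 0.0239, 0.0156 and 0.0129), where 9.61% of all genes were called higher. A block on 4 libraries leaves little from which to estimate the spread of a gene. Without the block these libraries gave 0 chains higher, where 0.85% of all genes were.

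The start region of Col4a1 and Col4a2 is printed because these genes share it and had the highest combined counts of any such pair. Their annotated first exons overlap by 22 bp on chromosome 8, with Col4a1 reading to the left and Col4a2 to the right. The windows hold the 250 bases before each RefSeq start on GRCm38.p6, each written 5′ to 3′ on its gene's strand. Capitals mark 4 motifs on either strand, overlaps included. They are the TATA box letters TATAAA, the CAAT box letters CCAAT, the GC box core GGGCGG and the AP-1 letters TGANTCA.
Col4a1, chr8:11312827-11313076, - strand: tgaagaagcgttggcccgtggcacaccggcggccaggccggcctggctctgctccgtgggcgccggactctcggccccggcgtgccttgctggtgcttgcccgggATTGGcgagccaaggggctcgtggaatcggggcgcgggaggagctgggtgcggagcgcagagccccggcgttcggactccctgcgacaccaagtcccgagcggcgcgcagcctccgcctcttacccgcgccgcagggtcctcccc
Col4a2, chr8:11312555-11312804, + strand: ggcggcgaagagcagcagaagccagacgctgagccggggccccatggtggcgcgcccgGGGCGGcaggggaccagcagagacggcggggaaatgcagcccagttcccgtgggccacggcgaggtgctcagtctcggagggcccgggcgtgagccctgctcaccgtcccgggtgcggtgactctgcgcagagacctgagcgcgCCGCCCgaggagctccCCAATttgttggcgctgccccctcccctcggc
Each window holds 1 match of CCAAT, and the Col4a2 window also holds 2 of GGGCGG. Neither window holds TATAAA. Their GC contents were 74.4% and 73.6%.

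The 4 chains that rose and have a window in the same RefSeq table were Col8a1, Col11a2, Col9a2 and Col7a1, and their windows are shown side by side. The RefSeq starts need not match the gene positions given here, which come from another annotation. The Col9a2 window runs past the start of its gene at 121039385. The Col11a2 window ends before the start of its gene at 34039437.
Col8a1, chr16:57754738-57754987, - strand: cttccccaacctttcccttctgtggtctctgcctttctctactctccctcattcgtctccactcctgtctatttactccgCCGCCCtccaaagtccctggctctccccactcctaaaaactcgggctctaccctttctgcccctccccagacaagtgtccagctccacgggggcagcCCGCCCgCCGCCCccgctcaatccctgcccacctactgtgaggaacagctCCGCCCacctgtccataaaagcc
Col11a2, chr17:34038888-34039137, + strand: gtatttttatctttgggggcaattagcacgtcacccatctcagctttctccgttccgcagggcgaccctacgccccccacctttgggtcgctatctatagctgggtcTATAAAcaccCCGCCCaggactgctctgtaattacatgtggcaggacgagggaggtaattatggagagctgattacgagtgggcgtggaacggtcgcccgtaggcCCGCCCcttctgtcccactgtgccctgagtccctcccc
Col9a2, chr4:121039316-121039565, + strand: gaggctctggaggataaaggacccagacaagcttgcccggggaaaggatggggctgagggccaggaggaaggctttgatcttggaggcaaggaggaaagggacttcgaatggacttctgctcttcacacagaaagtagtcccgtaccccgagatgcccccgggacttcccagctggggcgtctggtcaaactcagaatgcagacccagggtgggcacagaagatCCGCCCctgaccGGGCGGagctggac
Col7a1, chr9:108953336-108953585, + strand: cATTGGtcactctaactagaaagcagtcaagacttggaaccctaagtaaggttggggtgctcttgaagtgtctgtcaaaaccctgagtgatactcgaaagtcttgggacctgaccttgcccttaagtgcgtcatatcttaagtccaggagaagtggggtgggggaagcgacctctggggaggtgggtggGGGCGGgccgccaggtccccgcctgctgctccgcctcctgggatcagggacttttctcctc
All 4 hold GGGCGG, with 4 matches in Col8a1, 2 in Col11a2, 2 in Col9a2 and 1 in Col7a1, and Col11a2 holds the only TATAAA among them. Col7a1 alone of the 4 holds CCAAT, and TGANTCA was in none of the 4. Over all 32851 windows of that table, 32.7% hold GGGCGG, while 12.4% hold TATAAA, 33.8% hold CCAAT and 6.75% hold TGANTCA. Among the 38 windows of 35 chains, 22 held GGGCGG, 5 held TATAAA, 13 held CCAAT and 1 held TGANTCA. The E-box letters CANNTG, the type of site that Twist proteins bind, were in 19 of these 38 windows and in 66.2% of all windows. These are matches of letters and no evidence of binding.

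All 6 tested FACIT chains had positive log2 fold changes on the TMM scale, 3 of them also relative to the fibroblast markers, and 2 passed. Col12a1, which bridges fibrils in tissues under tension, had 73.3, 36.5 and 96.7 CPM in Tw2+ cells and 33.6, 14.5 and 24.9 CPM in Tw2-. Library 3 was the lowest in each group, and the groups were separated by the small gap between Tw2+ 3 and Tw2- 2. The log2 fold change was 1.5 (SE 0.40, 2.83-fold, adjusted p = 0.0347), on the - strand of chromosome 9 at 79598991 to 79718831.

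Col9a2, a chain of the cartilage FACIT collagen IX, had 5.44, 3.25 and 5.94 CPM in Tw2+ cells and 1.75, 2.36 and 1.88 CPM in Tw2-. The values came from 63, 40 and 59 counts in Tw2+ and 29, 44 and 24 counts in Tw2-, and the groups did not overlap (log2 fold change 1.28, SE 0.35, adjusted p = 0.0377). Its gene lies on the + strand of chromosome 4 at 121039385 to 121055322. The partner chain Col9a3 had 2.50, 2.36 and 5.84 CPM in Tw2+ cells and 3.19, 1.34 and 0.942 CPM in Tw2- cells (0.94, SE 0.55, adjusted p = 0.241), and 6.07% of its exonic length lies under the opposite gene Tcfl5. The remaining partner, Col9a1, was silent with 2 counts in all 6 libraries together.

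Beside these cartilage-type chains the 5 cartilage markers of the list were read. Their sum was 145 to 200 CPM in Tw2+ cells and 59.8 to 76.4 CPM in Tw2-. Nearly all of it was Sox9, a transcription factor of cartilage that fibroblasts also express, at 181, 134 and 186 CPM in Tw2+ cells and 63.0, 53.4 and 63.0 CPM in Tw2- cells (log2 fold change 1.48, SE 0.20, adjusted p = 0.00149). The defining markers Acan and Matn1 had at most 4 counts in any library, and Comp was at 11.6 CPM in Tw2+ cells and 7.66 CPM in Tw2- cells (0.60, adjusted p = 0.420). The part of Sox9 in the levels of Col9a2 and Col11a2 was not tested.

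The remaining FACIT chains did not pass in edgeR. Col14a1, which coats type I fibrils, had 355, 305 and 290 CPM in Tw2+ cells and 240, 267 and 273 CPM in Tw2-, with no overlap (log2 fold change 0.28, SE 0.19, adjusted p = 0.294). Col16a1, a fibroblast FACIT, had 214, 186 and 193 CPM in Tw2+ cells and 107, 129 and 162 CPM in Tw2- cells (0.57, SE 0.20, adjusted p = 0.0793). Col20a1 had 18.4, 16.7 and 28.5 CPM in Tw2+ cells and 14.0, 10.0 and 12.4 CPM in Tw2- cells (0.80, SE 0.27, adjusted p = 0.0715). In DESeq2 Col16a1 (adjusted p = 0.0468) and Col20a1 (adjusted p = 0.0487) were called higher. Both were also called by edgeR with all 3 pairs of libraries as blocks (adjusted p = 0.0423 and 0.0264). On the numbered libraries alone the block called Col16a1 (adjusted p = 0.0149) and lost Col9a2 (adjusted p = 0.10). Without the block those libraries gave 0 chains higher.

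Of 12 tested chains of other kinds 1 rose, and it had the largest log2 fold change of all tested chains. Col7a1, the anchoring fibril collagen that ties basement membrane to stroma, had 7.34, 6.99 and 13.4 CPM in Tw2+ cells and 4.52, 2.47 and 1.96 CPM in Tw2-. The counts were 85, 86 and 133 in Tw2+ and 75, 46 and 25 in Tw2-. All Tw2+ values were above all Tw2- values, and the log2 fold change was 1.62 (SE 0.41, 3.07-fold, adjusted p = 0.0298). The gene lies on the + strand of chromosome 9 at 108953586 to 108984875.

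Type VI collagen, assembled from Col6a1, Col6a2 and a further chain, did not pass for any chain. Col6a1 had 2464, 2072 and 2119 CPM in Tw2+ cells and 1197, 1579 and 2225 CPM in Tw2- cells (log2 fold change 0.41, SE 0.28, adjusted p = 0.315). Col6a2 had 1965, 1654 and 1646 CPM in Tw2+ cells and 920, 1242 and 1722 CPM in Tw2- cells (0.44, SE 0.28, adjusted p = 0.279). The Tw2- libraries of both genes differed by 1.86 and 1.87 times, in the order of the fibroblast marker sum. Col6a3, the longest of them, had 776, 772 and 684 CPM in Tw2+ cells and 609, 792 and 990 CPM in Tw2- cells (-0.10, SE 0.24, adjusted p = 0.788). Col6a6, an alternative partner, had 207, 204 and 189 CPM in Tw2+ cells and 195, 225 and 285 CPM in Tw2- cells (-0.23, SE 0.20, adjusted p = 0.428). Relative to the fibroblast markers Col6a3 and Col6a6 were lower in Tw2+, at -0.82 (adjusted p = 0.0353) and -0.97 (adjusted p = 0.0210). Col6a5 was low, at 0.406 to 2.24 CPM in Tw2+ cells and 0.859 to 4.22 CPM in Tw2-.

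Col15a1 and Col18a1, basement membrane collagens that release antiangiogenic fragments, overlapped between the groups. Col15a1 was abundant, at 2321, 2030 and 1605 CPM in Tw2+ cells and 1227, 1625 and 2091 CPM in Tw2- cells (log2 fold change 0.27, SE 0.28, adjusted p = 0.511). Col18a1 averaged 64.9 ± 13.1 CPM in Tw2+ cells and 62.3 ± 6.46 CPM in Tw2- cells (0.06, SE 0.21, adjusted p = 0.856). Col26a1 was at 3.12 to 5.04 CPM in Tw2+ cells and 1.33 to 6.04 CPM in Tw2-.

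The lowest fitted values belonged to rare chains. The transmembrane Col23a1 had 1.55, 3.66 and 1.31 CPM in Tw2+ cells and 7.53, 3.28 and 2.35 CPM in Tw2- cells (log2 fold change -1.0, SE 0.55, adjusted p = 0.214). Without Tw2+ 3, its highest Tw2+ library, Col23a1 was called lower by edgeR (adjusted p = 0.0456), where 21.4% of all genes were. Leaving that library out had to widen the gap. Col28a1, known from peripheral nerve, had 0.604, 1.14 and 0.302 CPM in Tw2+ cells and 2.11, 1.61 and 0.314 CPM in Tw2- cells (-0.97, SE 0.69, adjusted p = 0.336). With Tw2+ 3 and the Tw2- library lacking a number left out, edgeR called it lower (adjusted p = 0.0184), where 22.7% of all genes were. Those libraries held its highest Tw2+ and its lowest Tw2- value, so leaving them out removed the overlap and adds no support. Col28a1 passed the expression rule through 1 Tw2+ and 2 Tw2- libraries. The 6 Schwann cell markers summed to 8.25 to 22.4 CPM in Tw2+ cells and 26.1 to 50.02 CPM in Tw2-, and their part in the Col28a1 values was not tested. Col17a1, a hemidesmosome collagen of epithelia, had 20, 10 and 11 counts in Tw2+ and 5, 13 and 9 counts in Tw2-, so that it passed the expression rule mainly through Tw2+.

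The 8 silent chains were Col24a1, Col10a1, Col9a1, Col19a1, Col22a1, Col6a4, Col13a1 and Col25a1. Col10a1, the marker of hypertrophic cartilage, Col9a1, Col19a1 and Col6a4 had at most 4 counts in any library. Col24a1 had 4 to 7 counts in Tw2+ and 5 to 10 in Tw2-, Col22a1 7 to 13 in Tw2+ and 5 to 9 in Tw2-, and Col13a1 2 to 13 in Tw2+ and 3 to 15 in Tw2-. Col25a1, a transmembrane chain of neurons, had 1, 4 and 5 counts in Tw2+ and 15, 13 and 7 counts in Tw2-. A level of 3 counts corresponded to 0.244 to 0.302 CPM in Tw2+ cells and 0.161 to 0.235 CPM in Tw2- libraries, so these chains were at or near the limit of this depth.

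The balance between chains was compared within each library, as the ratio of counts per kb of exonic length, for 8 pairs. With 3 libraries against 3 the exact permutation test cannot give a p below 0.1, and the 8 p-values adjusted for the 8 ratios were 0.229 or more (two-sided). Col3a1 to Col1a1 was 0.670, 0.826 and 0.520 in Tw2+ and 1.00, 1.17 and 1.05 in Tw2-. The 3 Tw2+ values lay below the 3 Tw2- values, with a ratio 0.616 times that in Tw2- (log2 difference -0.70, p = 0.1 by the exact permutation test). Col6a3 to Col6a1 was 0.115, 0.136 and 0.118 in Tw2+ and 0.186, 0.184 and 0.163 in Tw2-, again without overlap (log2 difference -0.53, exact permutation p = 0.1). Col8a1 to Col8a2 was 41.0, 45.6 and 89.2 in Tw2+ and 23.2, 31.4 and 33.5 in Tw2- (log2 difference 0.92, exact permutation p = 0.1). These differences between groups do not depend on how libraries were scaled.

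The other ratios overlapped between the groups. Col6a1 to Col6a2 was the steadiest, at 2.38 to 2.45 in Tw2+ and 2.42 to 2.47 in Tw2- (log2 difference -0.03). Col4a1 to Col4a2 was 2.20 to 2.56 in Tw2+ and 2.16 to 2.33 in Tw2- (log2 difference 0.11). Col1a1 to Col1a2 was 1.75 to 2.01 in Tw2+ and 1.57 to 1.85 in Tw2- (log2 difference 0.16), or 0.835 to 0.959 in Tw2+ and 0.747 to 0.879 in Tw2- when the longest transcript gave the length. The level of a ratio thus rests on the length used, and its difference between groups does not. Col5a1 to Col5a2 was 0.950 to 1.6 in Tw2+ and 1.47 to 2.23 in Tw2- (log2 difference -0.55), and Col5a1 to Col1a1 differed by -0.16.

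**Figure D5:**
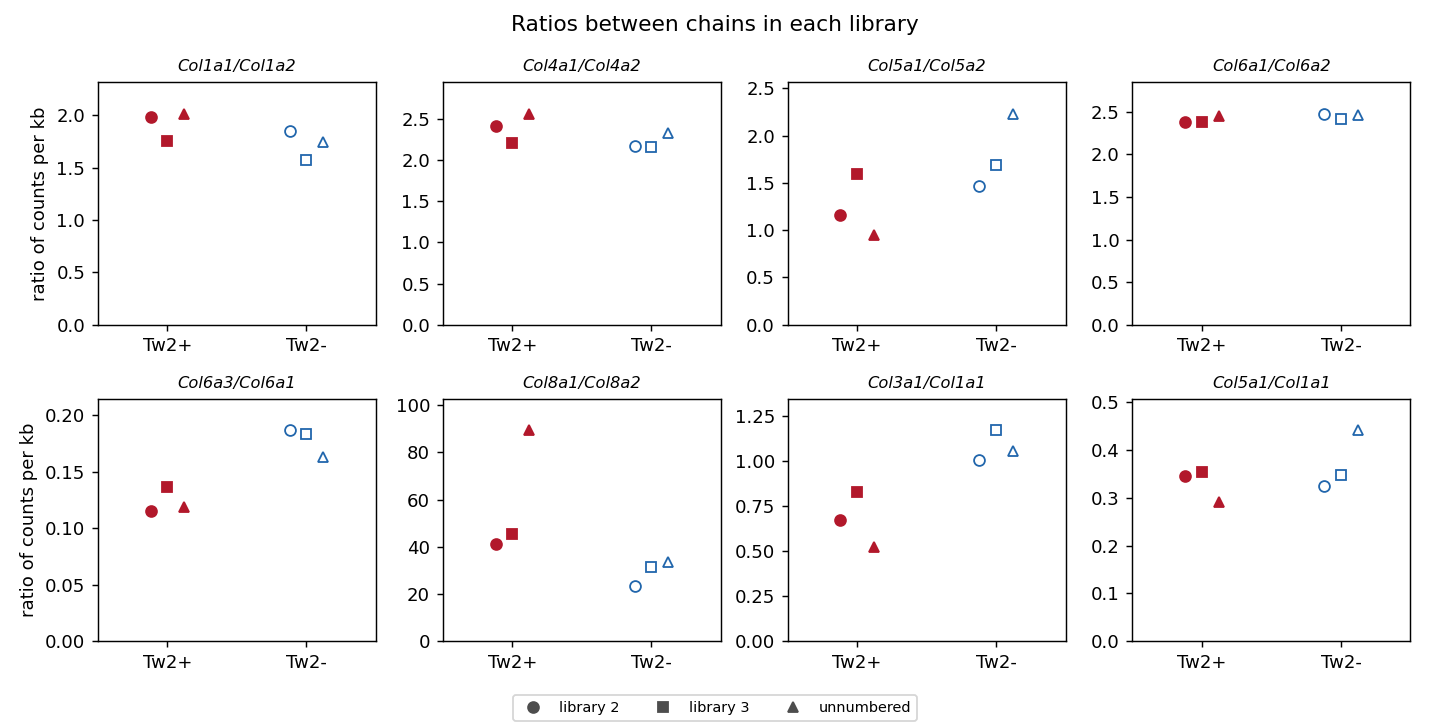
Ratio of counts per kb of exonic length between the chains compared, of the same or of different collagen types, in each library, Tw2+ left and Tw2- right, on linear axes from 0. Col6a3/Col6a1 and Col3a1/Col1a1 lie lower in every Tw2+ library, and Col8a1/Col8a2 higher.

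Genes that modify, carry, process and crosslink collagen were read from a list of 35, of which 34 were tested. In edgeR 3 rose and 0 fell, and the list's median log2 fold change was 0.39 (-0.35 relative to the fibroblast markers), against 0.00 for all tested genes. Over all tested genes edgeR called 7.41% higher, which is near the list's share. DESeq2 called 7 members higher and 1 lower, where it called 10.2% and 12.8% of all genes. Relative to the fibroblast markers 1 member was higher and 3 were lower, against 0.683% and 34.9% of all genes. The member Pcolce is itself among the markers of that scale, so its value there (-0.13) is held near 0. Lox, the lysyl oxidase that starts crosslinks, averaged 498 ± 165 CPM in Tw2+ cells and 143 ± 22.5 CPM in Tw2- cells (log2 fold change 1.80, SE 0.29, adjusted p = 0.00410), and was the 1 member also higher on the fibroblast scale (0.96, adjusted p = 0.0440). Crtap, a part of the prolyl 3-hydroxylase complex, averaged 105 ± 8.89 CPM in Tw2+ cells and 51.8 ± 12.2 CPM in Tw2- cells (1.03, SE 0.22, adjusted p = 0.0152). Plod2, a lysyl hydroxylase, averaged 83.1 ± 6.16 CPM in Tw2+ cells and 52.9 ± 4.79 CPM in Tw2- cells (0.65, SE 0.17, adjusted p = 0.0347). The members with the highest levels, the collagen chaperone Serpinh1 at 1208 CPM in Tw2+ cells and 1166 CPM in Tw2- and the prolyl 4-hydroxylase subunit P4hb at 875 CPM in Tw2+ cells and 678 CPM in Tw2-, did not pass (adjusted p = 0.894 and 0.232).

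Of 12 collagen receptor genes 11 were tested, 0 rose and 2 fell in edgeR, and DESeq2 called 1 higher and 3 lower. Over all genes the shares were 7.41% higher and 10.8% lower in edgeR, and 10.2% and 12.8% in DESeq2. Lair1, an inhibitory collagen receptor of leukocytes, averaged 0.881 ± 0.0862 CPM in Tw2+ cells and 24.4 ± 10.9 CPM in Tw2- cells (log2 fold change -4.77, SE 0.41, adjusted p = 0.000199). Gpr126, an adhesion receptor that binds type IV collagen, averaged 6.63 ± 1.17 CPM in Tw2+ cells and 15.4 ± 4.81 CPM in Tw2- cells (-1.22, SE 0.30, adjusted p = 0.0274). The integrin subunit Itgb1 at 961 CPM in Tw2+ cells and 701 CPM in Tw2-, and Ddr2, the fibrillar collagen receptor of fibroblasts, at 860 CPM in Tw2+ cells and 486 CPM in Tw2-, did not pass (0.46, adjusted p = 0.159, and 0.82, adjusted p = 0.0688).

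Of 13 genes of collagen breakdown and its inhibitors 12 were tested, 2 rose and 3 fell in edgeR. Over all genes 7.41% were higher and 10.8% lower. Relative to the fibroblast markers 0 members were higher and 4 lower, where 0.683% of all genes were higher and 34.9% lower, so the 4 lower members are at the share of all genes. Timp1, a metalloproteinase inhibitor, averaged 88.9 ± 45.0 CPM in Tw2+ cells and 20.8 ± 9.57 CPM in Tw2- cells (log2 fold change 2.10, SE 0.46, adjusted p = 0.0173). Ctsk, the collagen-cleaving cathepsin K, averaged 86.9 ± 29.9 CPM in Tw2+ cells and 37.2 ± 10.4 CPM in Tw2- cells (1.22, SE 0.30, adjusted p = 0.0279). The fallen members were the collagenases Mmp8 and Mmp13 and the gelatinase Mmp9. Mmp13 averaged 2.79 ± 1.19 CPM in Tw2+ cells and 56.1 ± 28.2 CPM in Tw2- cells (-4.32, adjusted p = 0.000382), and Mmp9 averaged 1.41 ± 0.126 CPM in Tw2+ cells and 19.2 ± 5.96 CPM in Tw2- cells (-3.75, adjusted p = 0.000206). Mmp8, a neutrophil enzyme, had 0.0271 CPM in Tw2+ cells and 9.28 CPM in Tw2-. The 4 granulocyte markers summed to 1.11 to 1.30 CPM in Tw2+ cells and 130 to 264 CPM in Tw2-, with Cxcr2 at 0 in all Tw2+ libraries, and the 6 macrophage markers are given above. The part of these cells in the fall of Lair1, Mmp8, Mmp9 and Mmp13 was not tested. The members with the highest mean over all libraries, Timp2 at 1825 CPM in Tw2+ cells and 1193 CPM in Tw2- and the gelatinase Mmp2 at 1798 CPM in Tw2+ cells and 1099 CPM in Tw2-, did not pass (adjusted p = 0.0995 and 0.0712). The inhibitor Timp3, the highest member within Tw2-, was at 1492 CPM in Tw2+ cells and 1302 CPM in Tw2- cells (log2 fold change 0.20, adjusted p = 0.558).

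The calls of single chains rested on few libraries. With 1 library left out, 0 chains were called higher by edgeR in 4 of 6 cases. The left-out library was then Tw2+ 2 (1.39% of all genes higher), the unnumbered one of Tw2+ (1.68%), Tw2- 3 (0.609%) or the unnumbered one of Tw2- (2.22%). Without Tw2- 2, Col12a1 and Col7a1 passed, with 2.94% of all genes higher. Without Tw2+ 3, 11 chains passed, including the 6 named above, with 20.7% of all genes higher. Since every Tw2+ value of the 6 chains lay above every Tw2- value, their sign could hardly turn in these 6 fits. Their log2 fold changes there were 0.58 to 0.87 for Col8a1, 0.83 to 1.08 for Col5a2, 0.97 to 1.52 for Col11a2, 1.12 to 1.5 for Col9a2, 1.17 to 1.81 for Col12a1 and 1.26 to 2.01 for Col7a1. Tw2+ 3 was the lowest Tw2+ library for all 6 of them, while over the 35 tested chains Tw2+ 3 and the unnumbered Tw2+ library were each the lowest of their group 17 times. On all 6 libraries, 5 chains were higher with RLE scaling (6.3% of all genes), 4 with limma-voom (5.65%), 3 with at least 50 counts in 3 libraries (6.32%) and 6 without a filter (6.88%). With the 3 pairs of libraries as blocks 9 chains were higher, all 6 named above among them (14.8%). On the 4 numbered libraries 9 were higher with the replicate number as a block (9.61%) and 0 without it (0.85%).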

How the data were processed

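RNA of tdTomato-positive (Tw2+) and tdTomato-negative (Tw2-) sorted non-cardiomyocytes of mouse hearts was sequenced, 3 libraries per group. The authors deposited 1 table of raw counts per gene symbol for the 6 libraries. Per the submitters' processing notes, the tools were DESeq2 1.6.3 and TopHat2 2.0.0, and GRCm38 and mm10 were both named as build, without their roles. The sources used here give neither the counting program nor the annotation or strand setting. Reads shared by overlapping genes could be split between them, but the exonic overlaps of collagen chains were at most 6.07% of a chain's length.

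From these counts, genes were filtered with filterByExpr of edgeR 4.0.16 at a minimum count of 10, which kept 13180 of 24062. Libraries were scaled by TMM, and Tw2+ was tested against Tw2- with edgeR's quasi-likelihood test and Benjamini-Hochberg adjustment over all tested genes (R 4.3.3, limma 3.58.1). The same steps were also run on counts simulated for genes with a mean of at least 50 counts. That run does not cover low chains such as Col9a2. CPM are on TMM-scaled library sizes. Total counts were 11746696 to 16447098, and 3 counts, the limit that a count of 0 allows, stood for 0.161 to 0.302 CPM, which covers counting error only. No library was a copy of another, since the chi-square per degree of freedom between libraries of 1 group was at least 25.3. The labels give no number of hearts, so p-values measure the spread between libraries, which may be partly technical.

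Lengths and gene positions came from GENCODE M21 on GRCm38, which held 98.4% of the symbols (23666 of 24062), and promoter windows from RefSeq on GRCm38.p6. The collagen chains, their classes, the gene lists and the markers were chosen with earlier results of these data known. All chains are accounted for, and the chains with the highest counts per kb of each class and all called chains are given per library. Of the biosynthesis, receptor and degradation lists, called members and the 2 with the highest CPM are named. Alternatives were DESeq2 1.42.0, limma-voom, RLE scaling, library size alone, scaling to 10 fibroblast markers, other count filters, an adjusted p under 0.01, the replicate number as a block (on the 4 numbered libraries, and on all 6 with the unnumbered ones taken as a pair) and leaving out each library. Single-cell data were not analysed here.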

Additional observations from a re-analysis of the deposited data

How the results depend on the processing

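The number of chains called higher in Tw2+, 6 in edgeR, was 5 with RLE scaling, 4 with limma-voom and 6 without a filter on low counts. It was 11 with DESeq2, 3 with at least 50 counts in 3 libraries, 0 by library size alone, 0 relative to the fibroblast markers, 0 at an adjusted p under 0.01 and 0 to 11 with 1 library left out. Chains called lower numbered 4 relative to the fibroblast markers and 0 to 1 with 1 library left out. The cause was not tested.

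Over all genes, the 976 called higher became 1541 with DESeq2, 405 by library size, 90 relative to the fibroblast markers, 90 at an adjusted p under 0.01 and 81 to 2801 with 1 library left out. The 1419 called lower became 4605 relative to the fibroblast markers, 701 at an adjusted p under 0.01 and 811 to 2906 with 1 library left out. With both Tw2+ 3 and the Tw2- library lacking a number left out, chosen after seeing the data, 2565 genes were higher and 3068 lower, with 11 chains higher and 2 lower.

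In the biosynthesis list, 3 higher and 0 lower became 7 and 1 with DESeq2, 1 lower by library size, 1 and 3 relative to the fibroblast markers, 12 and 1 without both libraries, and 1 to 7 and 0 to 1 with 1 library left out. In the receptor list, 0 higher became 1 with DESeq2, 2 without both libraries and 0 to 3 with 1 left out. Its 2 lower became 4 relative to the fibroblast markers, 4 without a filter, 4 without both libraries and 1 to 4 with 1 left out. In the degradation list, 2 higher became 4 with DESeq2, 1 by library size, 0 relative to the fibroblast markers and 0 to 3 with 1 left out.

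Relative to the fibroblast markers the log2 fold change turned negative for Col1a1 (-0.26), Col1a2 (-0.41), Col5a1 (-0.40), Col5a3 (-0.43), Col11a1 (-0.59), Col27a1 (-0.22), Col4a1 (-0.10), Col4a2 (-0.21), Col4a3 (-0.22), Col4a4 (-0.28), Col4a5 (-0.19), Col14a1 (-0.49), Col16a1 (-0.16), Col20a1 (-0.011), Col6a1 (-0.30), Col6a2 (-0.28), Col15a1 (-0.45), Col18a1 (-0.69) and Col26a1 (-0.59). By library size it did so for Col5a3 (-0.011), Col11a1 (-0.071), Col15a1 (-0.0045), Col18a1 (-0.21) and Col26a1 (-0.22). Without both libraries Col6a3 was at 0.044 and Col18a1 at -0.0060. With 1 library left out the sign turned for Col11a1 (-0.20 to 0.42), Col18a1 (-0.055 to 0.22), Col26a1 (-0.41 to 0.37), Col4a6 (-0.18 to 0.094), Col6a3 (-0.30 to 0.042), Col6a5 (-1.05 to 0.49) and Col8a2 (-0.29 to 0.23), none of them called. For chain ratios and collagen shares, leaving out 1 of 3 libraries cannot move a group mean by as much as the SD. It was therefore no check of their stability. The level of a ratio moved when the length used was changed, as given above for Col1a1 to Col1a2.

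With the replicate number as a block, on the 4 numbered libraries, 9 chains were higher, 1300 genes were higher and 2203 lower, and Col4a6 (0.17), Col8a2 (0.20) and Col6a3 (0.12) turned positive. The same 4 libraries without the block gave 0 chains higher. Deviations from the group means correlated at 0.201 for number 2, 0.561 for number 3 and 0.239 for the unnumbered libraries, against -0.417 to 0.122 for the other pairings. Each library was thus most like its own partner. Since deviations cancel within a group, these correlations are not independent of each other and are weak evidence of pairing. The labels number the samples 1 to 3 in each group, but the unnumbered columns carry no number, so their pairing is an assumption. With that replicate block on all 6 libraries, chosen after seeing the data, 9 chains were higher (the 6 and Col4a5, Col16a1 and Col20a1) and 0 lower. Over all genes 1946 were higher and 2311 lower. The biosynthesis list then had 6 higher and 1 lower, the receptor list 1 and 4, and the degradation list 3 and 4. Depth limits the silent chains and those near 10 counts.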
